A study of Mus musculus with 2 samples.

Results

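Genes named Zfp followed by a number encode mouse zinc finger proteins, and 218 of them were expressed in monocytic myeloid-derived suppressor cells (M-MDSC) induced with or without CHBP. The members were chosen by symbol (Zfp and digits only) and by level, with at least 1 FPKM (fragments per kilobase of gene, scaled to the library total) in the CHBP- or the CHBP+ library. Of 343 rows with such a symbol, 218 passed and 125 were under 1 FPKM in both libraries, 22 of them without a read. All genes kept by the same rule were 10948 of 34745 listed. Because the rule used the levels in both libraries, and Zfp292 was singled out for its change between them, the values below are descriptions and carry no test.

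Both groups were bone marrow cells of mice aged 6 to 8 weeks, kept in culture for 7 days in 50 ng/ml of the myeloid cytokine GM-CSF. Both are labelled M-MDSC, which the study defines as CD11b+Ly6G-Ly6Chigh cells, though its RNA sequencing methods do not state a sort. CHBP+ cells also received CHBP, a cyclic helix B peptide derived from erythropoietin, whose dose is 20 µM in the methods and 20 nM in the dose series of the study. The strain label is C57BL/6 for CHBP- and C57BL/7 for CHBP+, whereas the methods name C57BL/6 for both. One library was sequenced per condition, with 16484504 reads in CHBP- and 16280466 in CHBP+, so no difference has a replicate check, and the intervals below are exact 95% Clopper-Pearson intervals that cover counting error only.

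Most proteins of this family carry C2H2 fingers, short loops in which cysteines and histidines hold a zinc ion and which read DNA in tandem. Many also carry a KRAB domain, which recruits the corepressor TRIM28 and its partners that methylate histones, and these KRAB proteins are known for silencing transposable elements and imprinted genes. The symbol is shared by other proteins too, such as the RNA-binding ZFP36, so that the family is one of name and not of a single function.

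Promoter windows, 250 bases before to 50 after the annotated start, were available for 178 of the 218 members, in 213 windows of RefSeq (GRCm38.p6). Those of Zfp292 and Zfp871, the 2 members with the highest ratio of CHBP+ to CHBP-, and of Zfp263 and Zfp62, the 2 with the lowest, are shown because the results turn on these genes. Capitals mark matches on either strand to 6 promoter motifs. These were the GC box GGGCGG, the CCAAT box, the TATA box TATAAA, the core CCGGAAG of ETS factors, the core ACTACAA of ZNF143 and the E box CACGTG, which reads alike on both strands. In Zfp62 the GC and CCAAT boxes lie next to each other. Zfp292 is read from the minus strand at chr4:34882899-34883198, Zfp871 from the minus strand at chr17:32788238-32788537, Zfp263 from the plus strand at chr16:3743849-3744148 and Zfp62 from the plus strand at chr11:49203042-49203341.
Zfp292: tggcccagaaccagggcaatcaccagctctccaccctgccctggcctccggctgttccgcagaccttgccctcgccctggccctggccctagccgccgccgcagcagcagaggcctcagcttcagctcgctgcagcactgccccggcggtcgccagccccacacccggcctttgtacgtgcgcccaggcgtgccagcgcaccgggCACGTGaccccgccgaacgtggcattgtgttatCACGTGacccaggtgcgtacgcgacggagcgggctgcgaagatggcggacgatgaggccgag
Zfp871: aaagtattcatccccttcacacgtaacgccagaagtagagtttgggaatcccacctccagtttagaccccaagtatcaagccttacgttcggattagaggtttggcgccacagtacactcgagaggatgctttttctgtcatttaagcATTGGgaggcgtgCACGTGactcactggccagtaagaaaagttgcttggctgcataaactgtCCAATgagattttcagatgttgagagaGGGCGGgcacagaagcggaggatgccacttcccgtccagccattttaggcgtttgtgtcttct
Zfp263: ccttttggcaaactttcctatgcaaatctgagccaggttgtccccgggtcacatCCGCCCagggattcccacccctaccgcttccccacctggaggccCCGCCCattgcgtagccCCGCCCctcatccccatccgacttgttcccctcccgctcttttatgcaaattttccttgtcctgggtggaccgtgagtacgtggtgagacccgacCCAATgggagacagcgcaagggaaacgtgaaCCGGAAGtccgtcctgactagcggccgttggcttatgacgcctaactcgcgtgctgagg
Zfp62: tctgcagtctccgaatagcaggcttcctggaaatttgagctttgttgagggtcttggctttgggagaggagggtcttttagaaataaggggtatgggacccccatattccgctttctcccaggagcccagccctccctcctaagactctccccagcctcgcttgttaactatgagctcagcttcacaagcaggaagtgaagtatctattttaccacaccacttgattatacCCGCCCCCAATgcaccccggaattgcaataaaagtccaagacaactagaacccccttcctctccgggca

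The Zfp292 window held the E box letters CACGTG at 2 places and none of the other 5 motifs, with 70.3% G and C and 30 CpG dinucleotides. Of all 32851 RefSeq windows of this length, 7.15% held CACGTG and 0.594% held it at 2 or more places, and of the 10267 windows of genes kept here, 10.3% and 1.12%. Of the 213 member windows, 7.98% held it and 1, that of Zfp292, held it at 2 or more. The Zfp871 window shown held CACGTG at 1 place, beside CCAAT at 2 and GGGCGG at 1. The Zfp263 window held GGGCGG at 3 places, CCAAT at 1 and CCGGAAG at 1, and that of Zfp62 shown held GGGCGG and CCAAT at 1 place each. Zfp871 and Zfp62 each had another RefSeq window, not shown, with CCAAT at 2 places, TATAAA at 1 and no CACGTG for Zfp871, and GGGCGG at 2 places and no CCAAT for Zfp62. Members with CACGTG in a window (17 of 178) had a median log2 ratio of 0.10, and the other 161 had 0.08. Such matches are letters in a window and were not tested as binding sites.

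Zfp292 stood apart from every other member. It is a very large C2H2 protein, first described in the rat pituitary as an activator of the growth hormone gene. The gene (ENSMUSG00000039967, chr4:34803113-34882960 as deposited) had 144 reads in the CHBP- library and 2156 in the CHBP+ library, or 0.844 and 12.8 FPKM. Its level was thus under the limit of 1 FPKM in CHBP- and well above the family's median of 2.92 FPKM in CHBP+. Scaled to the library totals, its reads were 15.2 times higher in CHBP+ (12.8 to 18.1), and the log2 ratio, log2 of FPKM + 1 in CHBP+ over FPKM + 1 in CHBP-, was 2.90.

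Ranked by FPKM among the 218 members, Zfp292 went from place 211 in CHBP- to place 19 in CHBP+. The rule left out genes under 1 FPKM in both libraries, so any member under 1 FPKM in CHBP- had to rank low there. It held 0.161% of the family's reads (0.136% to 0.189%) in CHBP- and 2.08% (2.00% to 2.17%) in CHBP+. The next member, Zfp871, had a log2 ratio of 1.33, so that Zfp292 lay 1.57 above it, whereas Zfp871 lay 0.27 above the third, Zfp568. By reads scaled to the library totals, without a pseudocount, Zfp568 (3.97) lay above Zfp871 (3.60). Among all genes kept, 3 had a log2 ratio as high as that of Zfp292 or higher, itself included. No other listed gene with at least 10 reads overlapped its span.

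**Figure D1:**
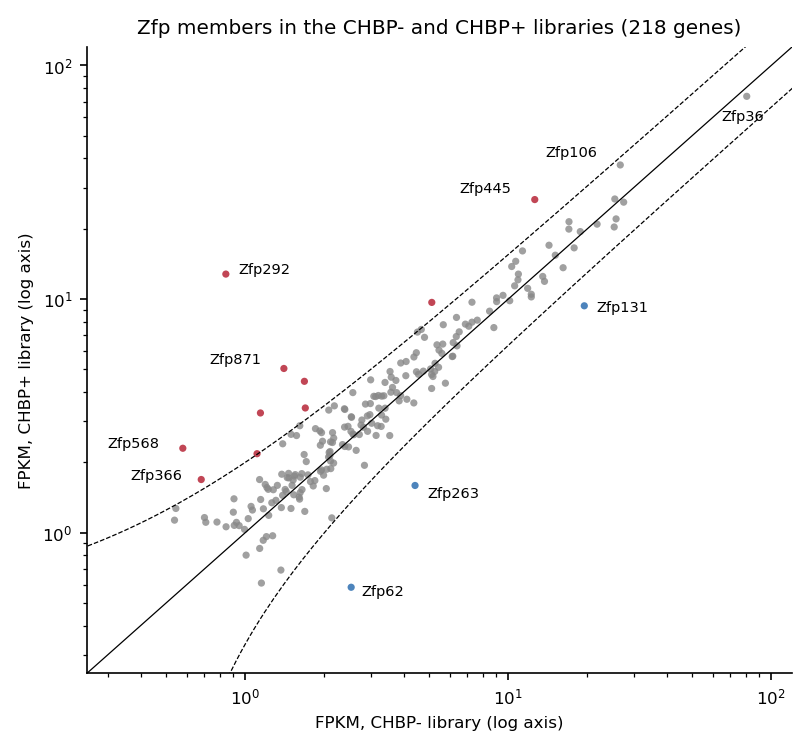
FPKM of the 218 Zfp members in the CHBP- library (x axis) and the CHBP+ library (y axis), both on log axes, 1 point per gene. The solid line marks equal levels and the dashed lines 1.5-fold changes of FPKM + 1, with the 10 higher members in red and the 3 lower in blue. Zfp292, at 0.844 and 12.8 FPKM, lies farthest from the line.

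Most members lay within 1.5-fold between the libraries. At the 1.5-fold threshold of the study's methods, applied to FPKM + 1, 10 of 218 members were higher in CHBP+, beside 3.42% of all genes kept, and 3 were lower, beside 2.89% of all genes kept. By another description, the interval of the reads ratio lay wholly above 1.5 for 13 members, beside 3.12% of all genes kept, and wholly below 1/1.5 for 4, beside 1.26% of all genes kept. The first rule thus took 4.59% of the members as higher and 1.38% as lower, beside those shares.

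The bulk of the family lay slightly above 0. The members' median log2 ratio was 0.09, with 146 of 218 above 0 (67.0%), whereas that of all genes kept was -0.03, with 46.3% above 0. Without Zfp292 the members' median was also 0.09, and the 217 log2 ratios had an SD of 0.30. The interval of the reads ratio lay above 1 for 76 members and below 1 for 20, and it held 1 for the other 122. Of all genes kept, 27.9% had it above 1 and 31.0% below 1. The family's reads summed to 89545 in CHBP- and 103581 in CHBP+, a ratio of 1.17 (1.16 to 1.18) after scaling, and 1.15 (1.14 to 1.16) without Zfp292. The sum did not rise in members of every length, and its split by gene length is given below. The largest gain in reads was not that of Zfp292 (2012 reads) but that of Zfp106 (2585 reads), a member of much higher level.

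The log2 ratio went with gene length, both in the family and in all genes. The length implied by reads and FPKM gave a Spearman's rho of 0.31 over the 218 members and 0.48 over the 10948 genes kept, as a description over genes of the same 2 libraries. Split into 3 groups by length, the 73 shortest members had a median of 0.01, the 72 in the middle 0.09 and the 73 longest 0.17. All genes kept of the same length ranges had medians of -0.17, -0.01 and 0.13. Reads of the shortest members summed to 21886 in CHBP- and 21279 in CHBP+, the middle 21840 and 23925, and the longest 45819 and 58377. All genes kept of the shortest range held 39.9% of the library's reads in CHBP- and 35.2% in CHBP+. Those of the middle range held 28.3% and 28.4%, and those of the longest 31.1% and 35.6%. After subtracting the running median over the genes nearest in length, the members' median was 0.11. Why the ratio moved with length was not tested.

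Zfp292, with an implied length of 10347 bases, lay far above members of like length. The 10 members nearest to it in length (9719 to 11032 bases) had log2 ratios from -0.12 to 0.46, with a median of 0.10. Of the 38 longer members, the highest log2 ratio was 1.06. With the length trend removed, Zfp292 was at 2.77.

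**Figure D2:**
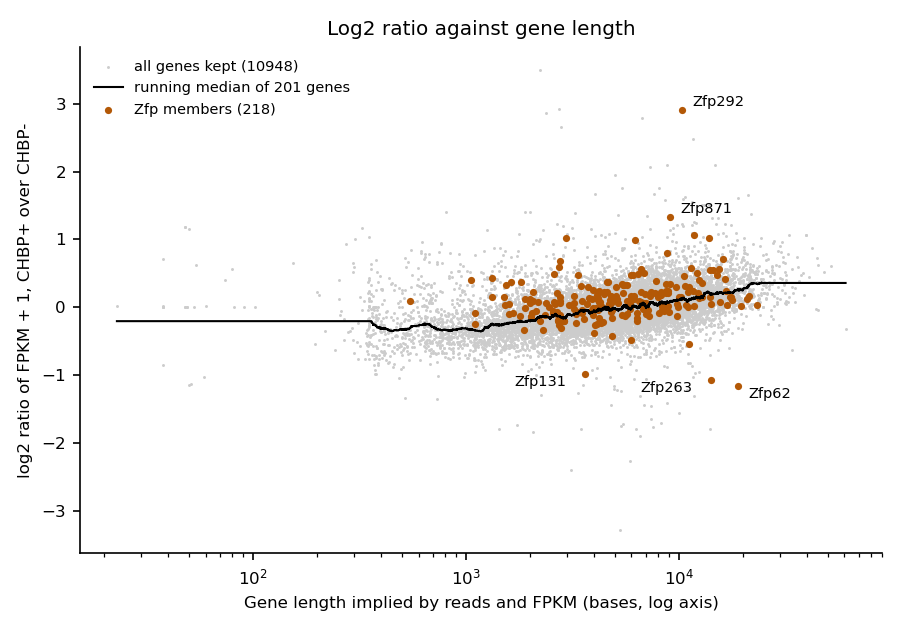
Log2 ratio of FPKM + 1, CHBP+ over CHBP- (y axis), against the gene length implied by reads and FPKM in bases (x axis, log scale). Grey points are the 10948 genes kept, orange points the 218 Zfp members, and the line is the running median over neighbouring genes, which rises with length, with Zfp292 at 2.90 far above it.

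Of the 10 members higher in CHBP+, 5 had letters of a KRAB domain, beside 99 of the 211 members with a protein model. Zfp871 (ENSMUSG00000024298, chr17:32771236-32788287), whose protein model holds KRAB letters and 15 C2H2 fingers, had 210 reads in CHBP- and 746 in CHBP+, or 1.40 and 5.05 FPKM. Its reads ratio was 3.60 (3.08 to 4.21). Zfp568 (ENSMUSG00000074221), a KRAB repressor of a placental Igf2 transcript, had 113 and 443 reads, 0.579 and 2.30 FPKM, and a reads ratio of 3.97 (3.22 to 4.92).

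Zfp445 (ENSMUSG00000047036, chr9:122851914-122862128), which keeps imprints together with Zfp57, was the member of this group with the highest level. It had 616 and 1286 reads, or 12.6 and 26.7 FPKM, a reads ratio of 2.11 (1.92 to 2.33). Zfp57 itself was not among the members, with 28 and 16 reads and 0.186 and 0.108 FPKM. Zfp369 (118 and 332 reads, 1.14 and 3.26 FPKM) had a reads ratio of 2.85 (2.30 to 3.55). Its close relative Zfp110, known as a partner of the p75 neurotrophin receptor, had 971 and 1035 reads and a reads ratio of 1.08 (0.988 to 1.18).

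The other members past the threshold had no KRAB letters, except Zfp563. Zfp236 had 385 and 1007 reads, a reads ratio of 2.65 (2.35 to 2.99), and overlapped Gm10524, which had 22 and 44 reads. Zfp609, a partner of the cohesin loader Nipbl, had 748 and 1396 reads, or 5.12 and 9.68 FPKM, with a reads ratio of 1.89 (1.73 to 2.07). Zfp704 had 451 and 900 reads, a reads ratio of 2.02 (1.80 to 2.27), and its log2 ratio of 0.72 was 0.51, under the threshold, with the length trend removed.

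Zfp366 encodes DC-SCRIPT, a zinc finger protein known from dendritic cells. It had 31 reads in CHBP- and 76 in CHBP+, or 0.681 and 1.69 FPKM, a reads ratio of 2.48 (1.61 to 3.90). The markers of dendritic cells summed to 231 FPKM in CHBP- and 239 in CHBP+, and none of the 4 kept passed the 1.5-fold threshold. Of these, Itgax had a log2 ratio of 0.41, whereas Ccr7, H2-Ab1 and Flt3 had -0.40, -0.35 and -0.08, and the dendritic factor Zbtb46, under 1 FPKM in both libraries, had 49 and 93 reads. The part of such cells in the Zfp366 value was not tested. Zfp563 was the last past the threshold, with 50 and 97 reads, and its interval (1.38 to 2.82) reached below 1.5.

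At the other end, 3 members were lower in CHBP+. Zfp62 (ENSMUSG00000046311, chr11:49203292-49218816) had 789 reads in CHBP- and 180 in CHBP+, or 2.53 and 0.584 FPKM, a reads ratio of 0.231 (0.195 to 0.272) and a log2 ratio of -1.16. Zfp263 (ENSMUSG00000022529, chr16:3744093-3750790), a SCAN zinc finger protein that binds DNA widely, had 1032 and 367 reads, or 4.42 and 1.59 FPKM, a reads ratio of 0.360 (0.319 to 0.406). Zfp131 (ENSMUSG00000094870, chr13:119765187-119790805), a BTB domain transcription factor, had 1171 and 556 reads, or 19.5 and 9.36 FPKM, a reads ratio of 0.481 (0.434 to 0.532). Zfp62 and Zfp263 were long genes, of 18924 and 14149 bases, so that with the length trend removed their log2 ratios were -1.42 and -1.26, and that of Zfp131 was -0.94.

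The rest of the 10 lowest had log2 ratios inside the threshold. Zfp260, a cardiac partner of GATA4, had 392 and 210 reads and a log2 ratio of -0.54, and its reads interval (0.457 to 0.643) lay wholly below 1/1.5. With the length trend removed it was at -0.64, past the threshold. Zfp605 (134 and 67 reads) and Zfp775 (92 and 48 reads) had wider intervals, 0.372 to 0.684 and 0.365 to 0.757. Zfp593, Zfp1, Zfp653 and Zfp622 had log2 ratios of -0.38, -0.34, -0.33 and -0.30.

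**Figure D3:**
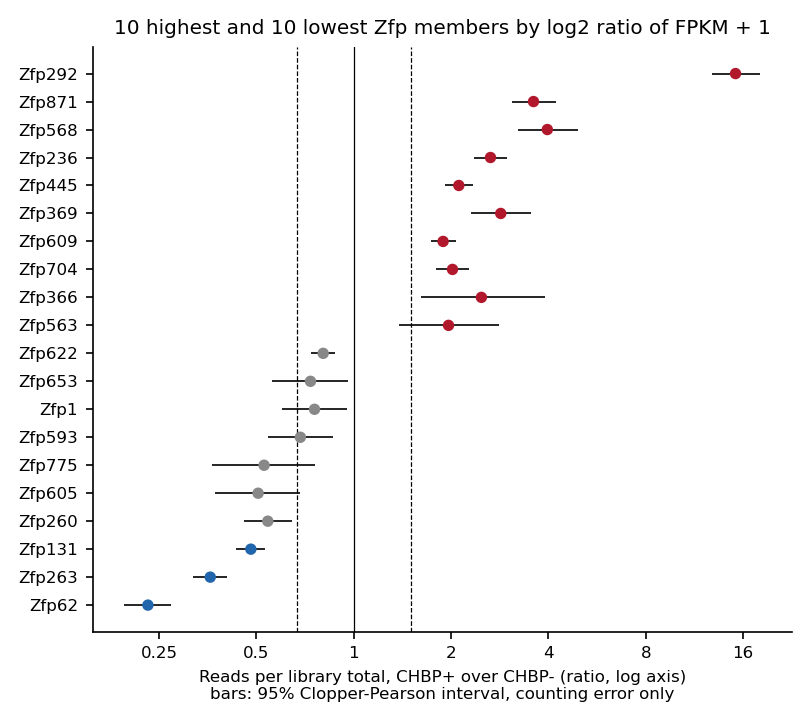
Ratio of reads per library total, CHBP+ over CHBP- (x axis, log scale), for the 10 members at the top and the 10 at the bottom by log2 ratio of FPKM + 1. Bars are 95% Clopper-Pearson intervals for counting error, dashed lines mark 1.5-fold, red and blue points are past it on the FPKM + 1 scale, and Zfp292 at 15.2 lies beyond all other intervals.

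Of the 10 most abundant members, 1 was past 1.5-fold. Levels ranked much the same in the 2 libraries, with a Spearman's rho of 0.91 over the 218 members. Zfp36, or tristetraprolin, which binds AU-rich elements and speeds decay of cytokine mRNA, was highest, with 2385 and 2153 reads and 80.7 and 73.8 FPKM. Its reads ratio was 0.914 (0.862 to 0.969), but its log2 ratio of -0.13 was 0.09 with the length trend removed. Zfp106, an RNA-binding protein needed by motor neurons, was second by mean FPKM, at 26.7 and 37.5 FPKM, with a reads ratio of 1.41 (1.36 to 1.45).

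Of the remaining 8 most abundant members, Zfp445 was the one past 1.5-fold. Zfp330 (27.5 and 26.0 FPKM), Zfp52 (25.4 and 26.8 FPKM), Zfp146 (21.8 and 20.9 FPKM) and the splicing protein gene Zfp830 (18.8 and 19.5 FPKM) had reads intervals that held 1. Zfp91, a ubiquitin ligase for the kinase NIK, was at 17.0 and 21.4 FPKM, a reads ratio of 1.26 (1.20 to 1.32). Zfp706 (25.7 and 22.0 FPKM) and Zfp622, a factor of large ribosomal subunit assembly (25.3 and 20.4 FPKM), had intervals below 1, of 0.801 to 0.917 and 0.737 to 0.878.

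Members of textbook role in other processes had varied ratios, with Zfp568, Zfp609 and Zfp263, given above, at the ends. Zfp207, which binds Bub3 at the spindle, had 2509 and 2904 reads, a reads ratio of 1.17 (1.11 to 1.24). The ribosome collision ligase gene Zfp598 had 733 and 669 reads (0.924, 0.831 to 1.03), and the SUMO ligase gene Zfp451 452 and 507 reads (1.14, 0.999 to 1.29). Zfp143, which binds promoters and chromatin loop anchors, had 750 and 822 reads, a reads ratio of 1.11 (1.00 to 1.23). Zfp410, an activator of Chd4, had 611 and 523 reads (0.867, 0.770 to 0.976), beside Chd4 at 6635 and 8062 reads.

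Several transcription factors of this group had intervals above 1 but below 1.5. Zfp148 (ZBP-89) had 1162 and 1574 reads, a reads ratio of 1.37 (1.27 to 1.48), and Zfp281, which binds similar GC-rich sites, 545 and 696 reads (1.29, 1.15 to 1.45). Zfp217, a CoREST-associated repressor, had 2060 and 2420 reads (1.19, 1.12 to 1.26). Zfp809, a KRAB protein that silences retroviruses at the proline tRNA primer site, had 105 and 148 reads, with a wide interval (1.10 to 1.85), and its log2 ratio of 0.44 was 0.68, past the threshold, with the length trend removed. The interval of Zfp407, with 413 and 726 reads, lay wholly above 1.5 (1.58 to 2.01), while its log2 ratio of 0.57 was just under the threshold. Zfp384, Zfp638 and Zfp746, the last a substrate of parkin, had log2 ratios of 0.02, 0.03 and 0.02, which were -0.25, -0.31 and -0.12 with the length trend removed.

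The members' predicted proteins were read from the longest coding sequence per gene of GENCODE M1, found for 211 of 218. A C2H2 finger was counted as 2 cysteines with 2 to 4 residues between them, 12 residues, and 2 histidines with 3 to 5 between them. The 99 members with KRAB letters had a median log2 ratio of 0.13, with 5 higher and 0 lower at 1.5-fold, and the 112 without had 0.05, with 5 higher and 2 lower. Of all genes kept, 3.42% were higher and 2.89% lower. The 2 lower, Zfp62 and Zfp263, had no match to the KRAB letters. Because the letters may miss a KRAB domain, the split of the lower members by KRAB letters is uncertain. Zfp131, the other lower member, had no protein model and is in neither group. The letters were set after values had been seen. With the start of the KRAB A box alone (83 members), the medians were 0.13 with and 0.05 without, and with its end alone (86 members), 0.12 and 0.06. Zfp292 had no KRAB letters and 14 fingers in 2698 residues.

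Members with over 12 fingers had the highest median of 4 groups by finger number. The 58 members with over 12 fingers had a median log2 ratio of 0.14, the 104 with 6 to 12 had 0.09, the 44 with 1 to 5 had 0.03, and the 5 with none, Zfp36 among them, -0.13. Over the 211 members Spearman's rho was 0.23 for the log2 ratio and -0.30 for the mean FPKM. In these members the log2 ratio also had a rho of 0.31 with gene length and 0.34 with the number of residues. The median number of residues was 685.5 over 12 fingers, 538.5 for 6 to 12, 519.5 for 1 to 5 and 594 for none. With the length trend removed, the medians were 0.19 over 12 fingers, 0.11 for 6 to 12, 0.08 for 1 to 5 and 0.09 for none, so that the value of the last group changed sign and the lower 3 groups lay close together. The 9 members with SCAN letters ranged from -1.06 (Zfp263) to 1.02 (Zfp445).

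**Figure D4:**
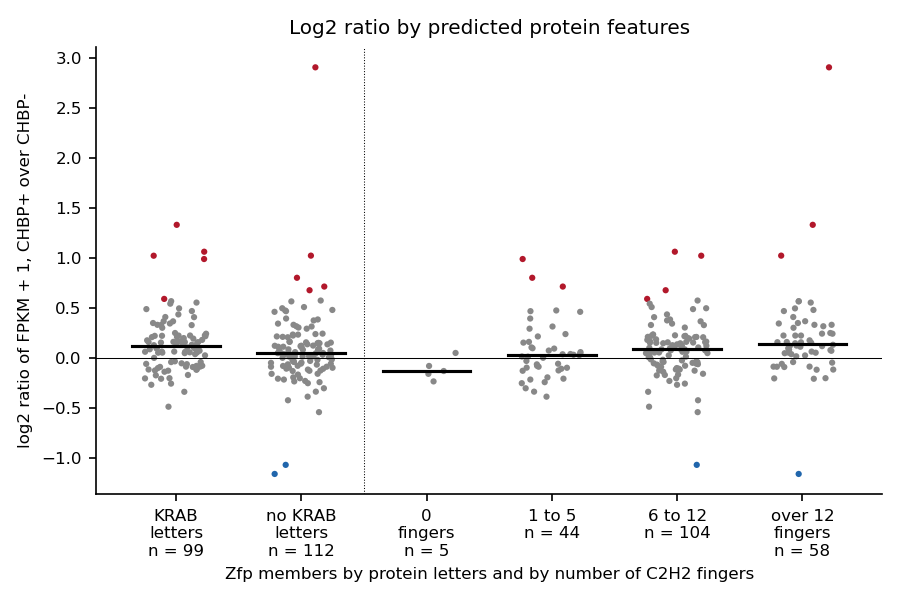
Log2 ratio of FPKM + 1, CHBP+ over CHBP- (y axis), of the 211 members with a protein model, by KRAB letters (left of the dotted line) and by number of C2H2 fingers (right). Bars are medians, 0.13 with and 0.05 without KRAB letters, and 0.14 over 12 fingers, and red and blue points are past 1.5-fold.

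Many Zfp genes stand in tandem arrays. In 12 runs of at least 4 neighbouring members, each less than 200000 bases from the next, lay 75 members, whose medians by run went from -0.06 to 0.25. The largest, 13 members on chromosome 13 from Zfp712 to Zfp85, had a median of 0.20, with 11 above 0 and none past 1.5-fold. The run from Zfp871 to Zfp563 on chromosome 17 had a median of 0.21, with 6 of 6 above 0, and Zfp871 and Zfp563 at its ends were the 2 past 1.5-fold. The run on chromosome 7 from Zfp84 to Zfp146 held both Zfp568 at 1.06 and Zfp260 at -0.54, so that neighbours differed widely. In 8 members on chromosome 7 from Zfp553 to Zfp629, 2 were above 0. Neighbours in such runs can be near-identical, and reads may be split among them, so single values there are less certain.

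**Figure D5:**
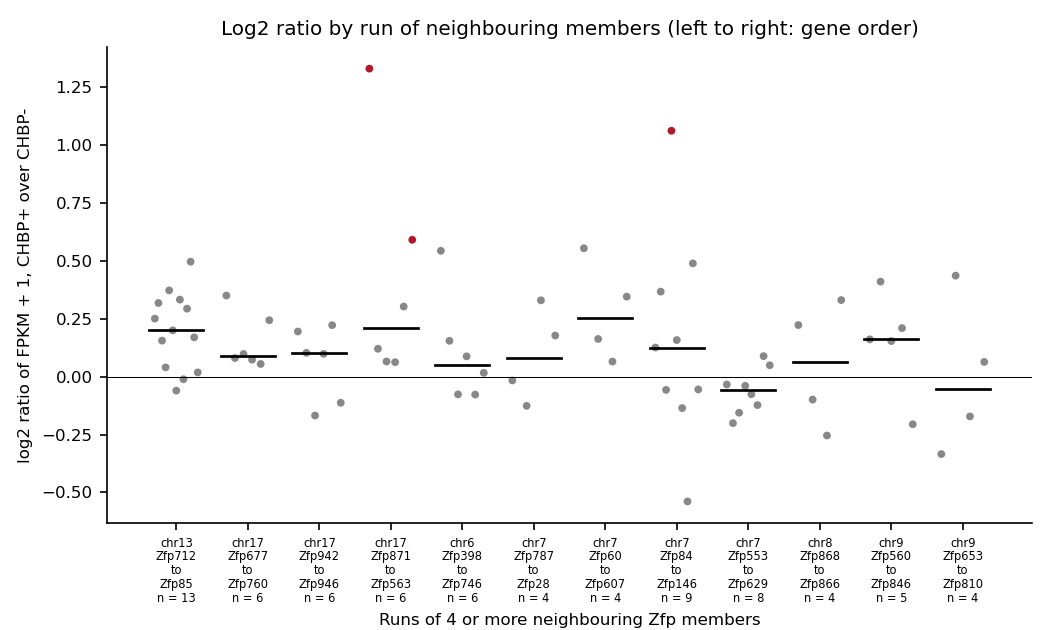
Log2 ratio of FPKM + 1, CHBP+ over CHBP- (y axis), of the 75 members in 12 runs of neighbouring Zfp genes (x axis), in gene order within each run, with a bar at each run's median. Run medians lie between -0.06 and 0.25, and Zfp871, Zfp563 and Zfp568 (red) are the members past 1.5-fold.

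The partners of the KRAB proteins were expressed in both libraries. Of 19 listed corepressor genes, 18 were kept, and 0 were past 1.5-fold in either direction, with a median log2 ratio of 0.19 and 13 above 0. Trim28, which binds the KRAB domain, had 2325 and 2060 reads, or 18.9 and 16.9 FPKM, a log2 ratio of -0.15. The histone methyltransferase gene Setdb1 was at 0.25 and the heterochromatin protein gene Cbx5 at 0.44, whereas Cbx3 was at -0.57, just inside the threshold. Of 23 kept genes for the ZFP36 relatives, mRNA decay machinery and AU-rich mRNAs, Cnot1, the scaffold of the deadenylase complex, was higher (0.70) and Hnrnpd, another AU-rich element binder, was lower (-0.60), with a median of -0.06. Tnf, the best-known target of ZFP36, had 2605 and 2378 reads, a log2 ratio of -0.11. The counts of both lists stand beside 3.42% higher, 2.89% lower and 46.3% above 0 of all genes kept.

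Other families of zinc finger genes gave medians of the same sign. The 32 Zbtb genes had a median of 0.22 with 2 higher and 0 lower, the 9 Klf genes 0.20 with 0 higher and 1 lower, and the 17 Zfp genes with a letter after the number 0.19 with 1 in each direction. These counts stand beside the same 3.42% higher and 2.89% lower of all genes kept, and the median of the 218 members was 0.09. The highest Zbtb gene had a log2 ratio of 2.66, near the 2.90 of Zfp292. With the length trend removed, the medians were 0.10 for Zbtb, 0.13 for Klf, 0.16 for the lettered Zfp genes and 0.11 for the members, so that Zbtb no longer lay above the members.

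At the threshold of 1 FPKM, Zfp503, Zfp202 and Zfp14 lay just inside, at 1.01, 1.03 and 1.06 FPKM in their higher library, and Zfp12, Zfp169 and Zfp458 just outside, at 0.990, 0.985 and 0.969 FPKM. Of the 218 members, 195 passed in both libraries, 15 in CHBP+ alone and 8 in CHBP- alone. The 15 were all above 0 and the 8 all below, as the rule required. The 195 had a median of 0.08, with 7 higher (3.59%) and 2 lower (1.03%). That stands beside 3.42% and 2.89% of all genes kept, which include genes that passed in 1 library alone. The 15 held 3 of the 10 higher members (Zfp292, Zfp568 and Zfp366), and the 8 held 1 of the 3 lower (Zfp62).

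The marker genes of other cells moved between the libraries as well. Of the M-MDSC markers, 4 of 6 rows were above 0, with a median log2 ratio of 0.16. Itgam (CD11b) had log2 ratios of 0.56 and 0.61 in its 2 rows, Csf1r 0.15 and Ccr2 0.17, whereas Ly6c2 had -0.73 (56.9 and 34.0 FPKM) and Ly6c1 -0.27. Ly6g, whose protein M-MDSC lack by the study's definition, was at 2.19 and 2.12 FPKM. The 8 granulocytic markers summed to 2012 FPKM in CHBP- and 1452 in CHBP+, with 7 of 8 below 0, and the 4 erythroid markers to 1276 and 581. The T cell markers were each under 1 FPKM. In such bulk samples, fewer cells of a type and less RNA per cell cannot be told apart, and the part of other cells in the members' ratios was not tested. Of the members, 29 overlapped another listed gene with at least 10 reads, and whether their counts hold reads of that gene was not tested.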

How the data were processed

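mRNA of M-MDSC was sequenced in 2 libraries, grouped by their labels. The deposited counts are reads per gene, which the authors' methods credit to HT-seq after TopHat2 on mm9, whereas the submitters' processing notes name HISAT2 2.0.4, Cufflinks 2.1.1 and mm10. The authors' FPKM are the deposited counts scaled by gene length and library total, so relative depth was not adjusted further. The spans of all 215 members matched to RefSeq by symbol overlapped their GRCm38 genes. Handling of strand and multi-mapping reads is not given in the sources used here.

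The log2 ratio had a pseudocount of 1 FPKM, and implied lengths came from reads and FPKM. No count model was fitted, because 1 library per condition leaves no spread, and edgeR 4.0.16 (R 4.3.3) gave TMM factors alone. Intervals were computed with scipy 1.17.1 and were tested on simulated data, and reads are not independent molecules. Members and lists were chosen with earlier results of these data known. Named were Zfp292, the 10 highest and 10 lowest by log2 ratio, the 10 highest by mean FPKM, members of textbook role and those nearest 1 FPKM. Other genes, and the promoter motifs and protein letters, were chosen after values were seen.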

Additional observations from a re-analysis of the deposited data

How the results depend on the processing

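No paired analysis was possible because each condition had 1 library, and for the same reason no replicate could be left out. Past 1.5-fold lay 10 higher and 3 lower members, against 22 and 6 at a pseudocount of 0.1, 21 and 6 on CPM, and 4 and 1 among the 68 members of at least 5 FPKM, and 5 members were higher at 2-fold. The smaller pseudocount and the CPM scale weigh low genes more, and both kept the 10 and the 3 among their calls. The counts moved by less than 1.5 times under the other settings (all Zfp genes with a read, a mean of at least 1 FPKM, TMM, median centring, removal of the length trend, and overlapping genes left out), with 8 to 13 higher and 3 to 4 lower. The rule on the reads interval, added after the data were seen, gave 13 and 4. With the length trend removed, 349 of all 10948 genes kept were higher and 155 lower. For the settings other than that and the interval rule, no share of all genes was computed, so those counts have no background. The log2 ratio of Zfp292 was 3.77 with a pseudocount of 0.1 and 3.78 on CPM, and 2.77 to 2.93 elsewhere. The members' median log2 ratio stayed between 0.06 and 0.12 in every setting. Of the other 46 named members, 19 moved beyond their counting interval when the length trend was removed, and Zfp36, Zfp90, Zfp146, Zfp330, Zfp384, Zfp451, Zfp638, Zfp687 and Zfp746, 9 of the 46, changed sign, none of them past the threshold. That setting kept 9 of the 10 higher members, losing Zfp704 (0.51), and the 3 lower ones.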

Other observations

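Zfp genes under 1 FPKM in both libraries held some differences in reads, though none passed 1.5-fold on FPKM + 1. All 321 Zfp genes with a read gave the same 10 higher and 3 lower as the members. Zfp12, just under the limit, had 241 reads in CHBP- and 123 in CHBP+, whereas Zfp169 had 82 and 199 and Zfp788 had 90 and 213. Of the genes of textbook role that were not members, Zfp521, known from haematopoietic progenitors, had 35 and 20 reads, and Zfp462 had 6 and 16. These values were chosen for their size after they were seen and were not tested.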
